A study of Mus musculus with 2 samples.

Results

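The ADAM, ADAMTS and ADAMTS-like genes were compared between NIH3T3 cells carrying MARVELD1 on a plasmid and NIH3T3 cells carrying the empty plasmid. Members were all genes whose name in the array's probe annotation begins with Adam, Adamts or Adamtsl followed by a digit. This gave 53 of 19698 named genes, with 100 probes, namely 30 ADAM genes on 51 probes, 18 ADAMTS genes on 39 probes and 5 ADAMTS-like genes on 10 probes. NIH3T3 is an established mouse embryonic fibroblast line. Its cells had received pcDNA3.1 with MARVELD1 inserted or pcDNA3.1 alone. Stable lines were then selected with G418, a drug that kills cells lacking the plasmid's resistance gene. Total RNA of each line was hybridised to 1 single-colour Agilent array, so each group is 1 sample (n = 1 each), and no test, standard error or p-value between groups can be given. The sources used here do not give the insert's promoter or species, or the number of clones in each line.

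ADAM proteins are membrane-anchored metalloproteases with a disintegrin domain. Several of them cut growth factors, receptors and adhesion molecules from the cell surface, a process called ectodomain shedding, while others lack the catalytic site and act in adhesion, in sperm or at synapses. ADAMTS proteins are secreted relatives with thrombospondin repeats that cut proteoglycans, procollagens and other matrix proteins. ADAMTS-like proteins share the non-catalytic part of the ADAMTS proteins, have no protease domain and bind to matrix, in particular to fibrillin microfibrils. In fibroblasts the families take part in growth factor release and in the building and turnover of the matrix.

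The probes of some genes differed from each other, so 8 probe sequences from the array design are shown for the genes on which the results turn. Each is a 60-mer with at least 1 open reading frame through all of its bases, printed 5′ to 3′ in the sense direction, with mm9 coordinates from the array annotation. For Adamts2, the upstream probe at chr11:50590188-50590247 (plus strand) and the downstream probe at chr11:50617472-50617531 (plus strand) read the same gene with unlike results. The capitals mark a stop triplet that ends the downstream probe, in the frame read from its first base. Whether that frame is the translated one was not checked. For Adam15, the upstream probe at chr3:89147875-89148074 (minus strand) covers 200 genomic bases with its 60 bases and thus spans a splice junction, while the downstream probe lies at chr3:89143688-89143747 (minus strand). The most upstream Adam19 probe lies at chr11:45952365-45952424 (plus strand). The Adam33 probe that carries the gene's value lies at chr2:130878985-130879133 (minus strand) and also spans a junction, with 149 genomic bases. The 2 upstream Adamts12 probes lie at chr15:11266072-11266131 and chr15:11229785-11229844 (plus strand).
Adamts2 upstream probe A_52_P184042: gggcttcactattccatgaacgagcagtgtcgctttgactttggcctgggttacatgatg
Adamts2 downstream probe A_51_P227222: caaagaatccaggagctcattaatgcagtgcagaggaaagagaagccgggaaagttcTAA
Adam15 upstream probe A_52_P362670: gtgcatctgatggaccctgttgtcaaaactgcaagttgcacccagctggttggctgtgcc
Adam15 downstream probe A_51_P291815: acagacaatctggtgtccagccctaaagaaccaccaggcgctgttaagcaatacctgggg
Adam19 upstream probe A_52_P396459: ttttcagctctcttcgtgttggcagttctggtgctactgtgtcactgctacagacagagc
Adam33 probe A_51_P419175: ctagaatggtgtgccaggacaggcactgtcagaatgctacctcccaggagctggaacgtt
Adamts12 middle probe A_52_P233305: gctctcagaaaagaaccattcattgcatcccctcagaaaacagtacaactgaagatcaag
Adamts12 upstream probe A_51_P162008: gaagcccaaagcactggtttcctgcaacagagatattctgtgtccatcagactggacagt

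Each array had 43379 non-control spots, of which 68.9% were well above background on the MARVELD1 array and 68.6% on the empty vector array, and both arrays lay on 1 slide and were read in 1 scan. Processed intensities are given as deposited and unscaled. The log2 difference is that of the MARVELD1 array minus the empty vector array after subtraction of each array's 75th percentile. Its median over 16526 detected genes was 0.19, so a value of 0.19 is the centre of all genes. Marveld1 was measured first as a check of the labels, and it was lower in the cells labelled MARVELD1. The brighter of its probes read 6292.8 on the MARVELD1 array against 8724.7 on the empty vector array, a log2 difference of -0.34, and the dimmer one gave -0.42. Whether these probes read the insert is not known, so every direction below rests on the labels. All 12 of 12 fibroblast markers were detected, with a summed intensity of 593952 on the MARVELD1 array and 758349 on the empty vector array, and Pdgfrb, Col3a1 and Fn1 were past 2-fold lower. Of 6 epithelial markers 4 were detected, while the defining markers Epcam and Cdh1 were not well above background. Summed over all 6, the intensity was 1127 on the MARVELD1 array and 3810 on the empty vector array. Among the detected keratins, Krt14 read 212.4 on the MARVELD1 array and 3226.6 on the empty vector array, 13.9-fold lower. Krt5 was 2.02-fold higher, Krt18 at least 2.35-fold higher, and Krt8 gave 0.08 at its brightest probe. A second Krt8 probe, measured on the MARVELD1 array alone, was at least 2.77-fold higher. The part of these markers in the members' values was not tested. In RNA from whole cultures, fewer cells of a type and less RNA per cell cannot be told apart. From 148 probes printed 10 times, the SD of a log2 difference between single spots was 0.41 for probes with an intensity under 300, 0.33 between 300 and 1000, and 0.17 above 1000. Over 5486 genes with several measured probes, the SD between the probes of a gene was 0.54. Every member probe was a single spot, and these SDs are technical and say nothing of the spread between cultures.

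Of the 53 members, 43 were detected, meaning that the brightest probe of the gene was well above background on at least 1 array. By the same rule, 16526 of 19698 named genes were detected. The 10 undetected members were Adam7, Adam22, Adam23, Adam24, Adam32, Adam38, Adam39, Adamts13, Adamts19 and Adamtsl2. Most detected members differed by less than 2-fold, which is a limit of size here: 2 of 43 were at least 2-fold higher on the MARVELD1 array (4.65%) and 4 were at least 2-fold lower (9.30%), against 5.39% higher and 3.53% lower among all detected genes. With so few members, 1 gene more or fewer moves these shares by 2.33 percentage points. The 2 higher members were Adam19 and Adamts7, and the 4 lower ones were Adam10, Adam33, Adamts2 and Adamtsl4. Just inside the limit was Adam19, at 2.18-fold. Just outside it were Adamts5 (1.86-fold lower), Adam21 (1.78-fold higher) and Adamtsl5 (1.77-fold lower). The background shares depend on the scaling. As given here 891 genes were higher and 584 lower. Scaling to the median of each array gave 653 higher and 723 lower, quantile normalization gave 666 higher and 704 lower, and loess gave 607 higher and 757 lower.

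The families had unlike centres. The median log2 difference was 0.30 over 23 detected ADAM genes, 0.05 over 16 ADAMTS genes and -0.32 over 4 ADAMTS-like genes, which is 0.11 above, 0.14 below and 0.51 below the median of all genes. The ADAM genes ranged between -1.39 and 1.12, the ADAMTS genes between -2.21 and 1.29 and the ADAMTS-like genes between -1.63 and 0.31. The ADAMTS median includes Adamts8, Adamts15 and Adamts20, which passed the filter only through the MARVELD1 array, where they read higher. Over the 13 ADAMTS genes measured on both arrays the median was -0.13, on the other side of 0. The ranges overlap, no test of these differences between families is possible with 1 array per group, and the ADAMTS-like median rests on 4 genes.

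**Figure D1:**
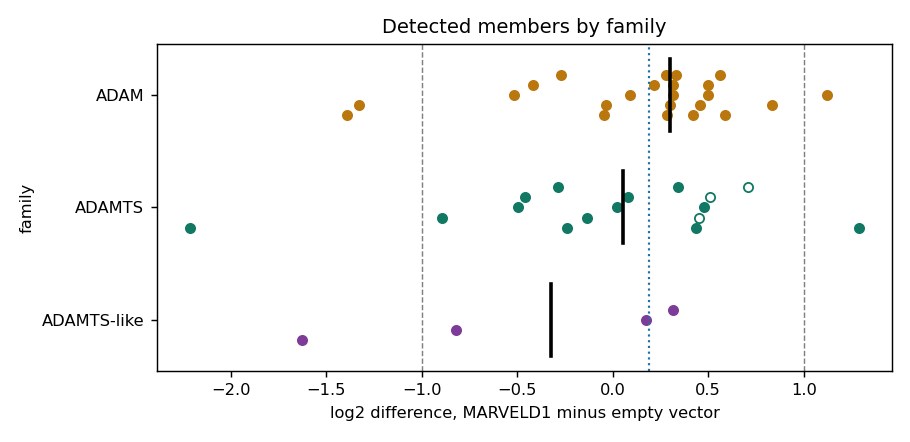
Log2 difference (MARVELD1 minus empty vector, horizontal axis) of each detected member, by family, with open circles for bounds, a black bar for the family median, a dotted line for the median of all genes and dashed lines at 2-fold. The medians are 0.30 for ADAM, 0.05 for ADAMTS (-0.13 without the 3 bounds) and -0.32 for ADAMTS-like genes, and 6 genes lie beyond the dashed lines.

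The 9 ADAM genes grouped here as active metalloproteases, apart from those known mainly from testis, were all detected on both arrays. They hold all 3 of the ADAM genes past 2-fold, 1 higher (11.1%) and 2 lower (22.2%), against 5.39% and 3.53% of all detected genes. The lower calls, Adam10 and Adam33, are dim, and the higher call, Adam19, rests on 1 of its 3 probes. The median of the 9 genes was 0.29. Adam10, the main sheddase of Notch receptors and of N-cadherin, read 59.4 on the MARVELD1 array against 170 on the empty vector array, a log2 difference of -1.39 or 2.62-fold lower. The gene had 1 probe, and both readings are dim, where the SD between single spots is 0.41. Normexp background correction with an added offset of 50, followed by quantile normalization, gave -0.87, which ends the 2-fold call. Quantile normalization alone gave -1.51. The offset narrows the ratio between readings this dim by construction. Adam17, the sheddase of TNF and of several EGF receptor ligands, read 455 on the MARVELD1 array and 599.1 on the empty vector array, a difference of -0.27, and its other probe, 108 bases away, gave -0.22. The 2 Adam17 probes thus agree within the spot noise, and both lie within 2-fold.

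Adam19, a protease that acts on neuregulins and in heart development, was the only ADAM gene past 2-fold higher. Its most downstream probe read 2024.6 on the MARVELD1 array and 1016.1 on the empty vector array, a log2 difference of 1.12 or 2.18-fold. The probe 867 bases upstream read 387.8 on the MARVELD1 array and 427.2 on the empty vector array, a difference of -0.01. The probe 8047 bases upstream, whose sequence is shown above, read 227.5 on the MARVELD1 array and 155.5 on the empty vector array, a difference of 0.68. The 2-fold call of Adam19 therefore rests on 1 of its 3 probes.

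Adam33, an ADAM known from airway mesenchyme and studied in asthma, read 85.1 on the MARVELD1 array and 233.8 on the empty vector array, a difference of -1.33 or 2.51-fold lower. Its second probe was well above background on the empty vector array alone, at 36.3 on the MARVELD1 array against 49.2 on the empty vector array, which is a bound of at least 1.24-fold lower. A bound sets the bright array against the lowest well-measured signal of the dim array, or against the probe's own reading there if that is higher. Neither array gave a reading well above background for the remaining Adam33 probe. With normexp and quantile normalization the Adam33 difference was -0.78, and with the mean of all probes it was -0.50. The 2-fold call ends under both. The Adam33 readings are dim, and the lowest well-measured intensity was 36.0 on the MARVELD1 array and 36.5 on the empty vector array.

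Adam9 and Adam15 read brightly on both arrays and differed little by their brighter probes. Adam9, a widely expressed ADAM with adhesive and proteolytic roles, read 25358 on the MARVELD1 array and 22517 on the empty vector array, a difference of 0.30 that became -0.01 after loess. Adam15, an ADAM that binds integrins, read 11896 on the MARVELD1 array and 9718.8 on the empty vector array at its downstream probe, a difference of 0.42. The junction-spanning Adam15 probe 4187 bases upstream read 127.4 on the MARVELD1 array and 318 on the empty vector array, a difference of -1.19. The 2 Adam15 probes are 1.61 log2 units apart and of opposite sign, so no single direction describes the gene.

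The other 3 active ADAM genes were within 2-fold. Adam8, a protease of leukocytes and of inflammation, read 390 on the MARVELD1 array and 349.5 on the empty vector array, a difference of 0.29. Adam12, a fibroblast and muscle ADAM that is raised in fibrosis, read 43.6 on the MARVELD1 array and 63.6 on the empty vector array, a difference of -0.42, and its other probe was not well above background. Adam28, known from lymphocytes and epididymis, gave 0.56, with 109.4 on the MARVELD1 array and 80.8 on the empty vector array. For Adam12 and Adam28 the readings are dim, and the differences are close to 1 SD of single spots.

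**Figure D2:**
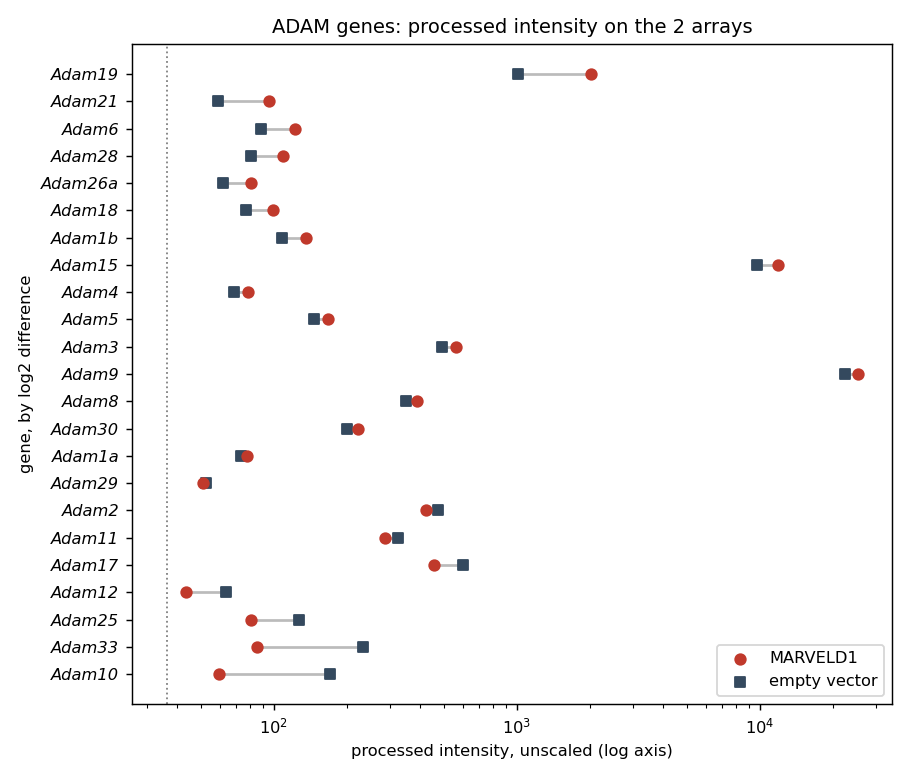
Processed intensity (horizontal log axis, unscaled) of the 23 detected ADAM genes on the MARVELD1 array (red circles) and the empty vector array (dark squares), ordered by log2 difference, with a dotted line at the mean of the arrays' lowest well-measured intensities. Adam19 lies at the top, with 2024.6 on the MARVELD1 array against 1016.1 on the empty vector array, and Adam10 at the bottom, with 59.4 on the MARVELD1 array against 170 on the empty vector array.

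Of the 3 brain ADAM genes that lack protease activity and act as synaptic adhesion proteins, Adam22 and Adam23 were not well above background. Adam11 read 288.4 on the MARVELD1 array and 324.6 on the empty vector array, a difference of -0.04. Its other probes gave 0.05 and -0.05, so its 3 probes lie within 0.11 of each other, and their opposite signs carry no direction.

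Of the 18 ADAM genes known mainly from testis and epididymis, 13 were detected, against 16526 of 19698 named genes. All 13 were detected on both arrays, with intensities between 51.3 and 560. None passed 2-fold (0 higher and 0 lower), against 5.39% higher and 3.53% lower among all detected genes. Of the 13, 11 lay above 0 and 2 below. Among 16526 detected genes, 10813 lay above 0 and 5685 below. The median of the 13 was 0.32, which is 0.13 above that of all genes. Adam3, a sperm protein needed for binding to the egg coat, read 560.4 on the MARVELD1 array and 492.3 on the empty vector array, a difference of 0.31. Adam2, a subunit of the sperm protein fertilin, read 423.8 on the MARVELD1 array and 473.7 on the empty vector array, a difference of -0.03. The fertilin alpha genes Adam1a and Adam1b gave 0.22 and 0.46. Among the others, Adam4 gave 0.33, Adam5 0.32, Adam18 0.50, Adam21 0.83, Adam26a 0.50, Adam29 0.09, Adam30 0.28 and Adam6 0.59. Adam25 lay lower, with 80.9 on the MARVELD1 array and 126.6 on the empty vector array, a difference of -0.52. Adam29 turned below 0 under each of the other scalings, with values between -0.08 and -0.01. Adam6 is listed under the transcript of Adam6a, and near copies of Adam6a and Adam26a adjoin them in the RefSeq gene order, so such probes may read more than 1 gene.

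Of 9 markers of testis and germ cells, 8 were detected. The same rule detected 5 of 5 endothelial, 6 of 6 macrophage and leukocyte and 4 of 4 neural markers. It also detected 3 of 4 muscle and 4 of 6 epithelial markers, so detection was not particular to the testis list. Over all 9 testis and germ cell markers the summed intensity was 2731 on the MARVELD1 array and 3726 on the empty vector array. Acr, which encodes a sperm protease, carried most of that sum, with 1578.7 on the MARVELD1 array and 2937.4 on the empty vector array. The other 7 detected markers summed to 1140 on the MARVELD1 array and 775.9 on the empty vector array. The germ cell marker Ddx4 was not well above background. Spaca1, a sperm acrosome gene, read 342.1 on the MARVELD1 array and 8.40 on the empty vector array, at least 10.2-fold higher. It was the only one past 2-fold, and its other probe was well above background on neither array. The part of these markers in the values of the testis ADAM genes was not tested. Adam18, Adam3, Adam5, Adam32 and Adam9 follow each other on chromosome 8 in the RefSeq gene order. The detected genes of that run gave 0.50, 0.31, 0.32 and 0.30, and Adam32 was not well above background.

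Among the ADAMTS genes, Adamts7 was higher by both of its probes. Adamts7, a protease of cartilage oligomeric matrix protein known from vascular smooth muscle, read 10770 on the MARVELD1 array and 4811.2 on the empty vector array, a difference of 1.29 or 2.44-fold. Its second probe, 174 bases downstream, read 2023.4 on the MARVELD1 array and 720.2 on the empty vector array, a difference of 1.62. Both differences exceed the SD of 0.17 for bright single spots, and Adamts7 stayed past 2-fold under 7 of 7 alternatives for single genes, between 1.03 and 1.45. Adamts12, its closest relative, did not share this direction at its brightest probe, which read 632.6 on the MARVELD1 array and 975.5 on the empty vector array, a difference of -0.50.

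The other Adamts12 probes disagreed. The probe 12414 bases upstream read 166.5 on the MARVELD1 array and 76.5 on the empty vector array, a difference of 1.25. The most upstream probe was well above background on the empty vector array alone, with 23.5 on the MARVELD1 array against 81.0 on the empty vector array, at least 2.06-fold lower. The 3 probes of Adamts12 thus point in opposite directions, and the 2 upstream probes are dim.

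The procollagen N-propeptidases Adamts2, Adamts3 and Adamts14 remove the amino-terminal propeptide from fibrillar procollagens, and 1 of the 3 passed 2-fold. The downstream Adamts2 probe, which ends in the stop triplet shown above, read 781.2 on the MARVELD1 array and 3952.9 on the empty vector array. This is a difference of -2.21 or 4.63-fold lower, the largest difference of any detected member. A probe 3361 bases further downstream read 87.3 on the MARVELD1 array and 159.5 on the empty vector array, a difference of -0.74. A probe between the 2 printed ones read 132.4 on the MARVELD1 array and 255.5 on the empty vector array, a difference of -0.82. These 3 probes lie on the same side of 0. The most upstream Adamts2 probe read 201.9 on the MARVELD1 array and 193.3 on the empty vector array, a difference of 0.19, the same as the median of all genes. Between the highest and lowest Adamts2 probe lie 2.40 log2 units, so the size of the difference depends on the probe, and with the median over its 4 probes it was -0.78. Adamts14 gave 0.44, with 172.4 on the MARVELD1 array and 139.1 on the empty vector array, and its other probe gave 0.22. Adamts3 read 103.6 on the MARVELD1 array and 111.4 on the empty vector array, a difference of 0.02 that lay below 0 under the other scalings.

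The 7 proteoglycanases, the ADAMTS proteases that cut aggrecan, versican and related proteoglycans, were all detected, 4 on both arrays and 3 on the MARVELD1 array alone, and none passed 2-fold (0 of 7). Adamts5, the main aggrecanase of mouse cartilage, read 1694.1 on the MARVELD1 array and 3433.6 on the empty vector array, a difference of -0.89 or 1.86-fold lower. This difference exceeds the SD of 0.17 for bright spots, and the other Adamts5 probe was not well above background. Adamts5 passed 2-fold under 4 of 7 alternatives, down to -1.06 after loess. Adamts1, its neighbour on chromosome 16 in the RefSeq gene order, read 786.1 on the MARVELD1 array and 812.1 on the empty vector array, a difference of 0.08 that became -0.03 with scaling to the array median. The other Adamts1 probe, 1147 bases upstream, read 52.0 on the MARVELD1 array and 98.5 on the empty vector array, a difference of -0.79. The neighbours were thus not alike at their brighter probes.

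Adamts9, a versicanase also needed for cilia, read 458.5 on the MARVELD1 array and 549.8 on the empty vector array, a difference of -0.13. Its second probe gave -0.79, at 48.2 on the MARVELD1 array and 90.9 on the empty vector array, and the remaining one gave a bound of at least 1.68-fold higher, so the dim probes point in opposite directions. Adamts4, an aggrecanase, read 136.3 on the MARVELD1 array and 175.5 on the empty vector array, a difference of -0.24. Adamts8, Adamts15 and Adamts20 were well above background on the MARVELD1 array alone, and only bounds can be given. Adamts8 read 54.7 on the MARVELD1 array and 31.3 on the empty vector array, at least 1.63-fold higher. Adamts15, its neighbour on chromosome 9, read 47.5 on the MARVELD1 array and 22.6 on the empty vector array, at least 1.42-fold higher. Adamts20 read 50.9 on the MARVELD1 array and 40.6 on the empty vector array, at least 1.37-fold higher. All 3 lie close to the lowest measurable intensity, and Adamts8 and Adamts20 each had 1 further probe that neither array measured well above background.

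The remaining ADAMTS genes stayed within 2-fold by their brightest probe. Adamts6 and Adamts10, a pair that acts on fibrillin microfibrils and on the cell surface, gave -0.29 and 0.34. Adamts6 read 95.8 on the MARVELD1 array and 127.7 on the empty vector array. Adamts10 read 67.9 on the MARVELD1 array and 58.5 on the empty vector array, while its other probe was at least 2.06-fold lower, with 35.0 on the MARVELD1 array against 81.0 on the empty vector array. The 2 probes of Adamts10 thus disagree at dim readings. Adamts16, studied for its part in blood pressure and kidney, read 559.8 on the MARVELD1 array and 839.4 on the empty vector array, a difference of -0.46. Its other probe was at least 2.09-fold higher, with 72.8 on the MARVELD1 array against 38.0 on the empty vector array, so its probes disagree as well. Adamts18, known from eye development, gave 0.48 and 0.31 by its 2 probes, the brighter with 335.7 on the MARVELD1 array and 263.3 on the empty vector array. Adamts13, the protease of von Willebrand factor, was not well above background.

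**Figure D3:**
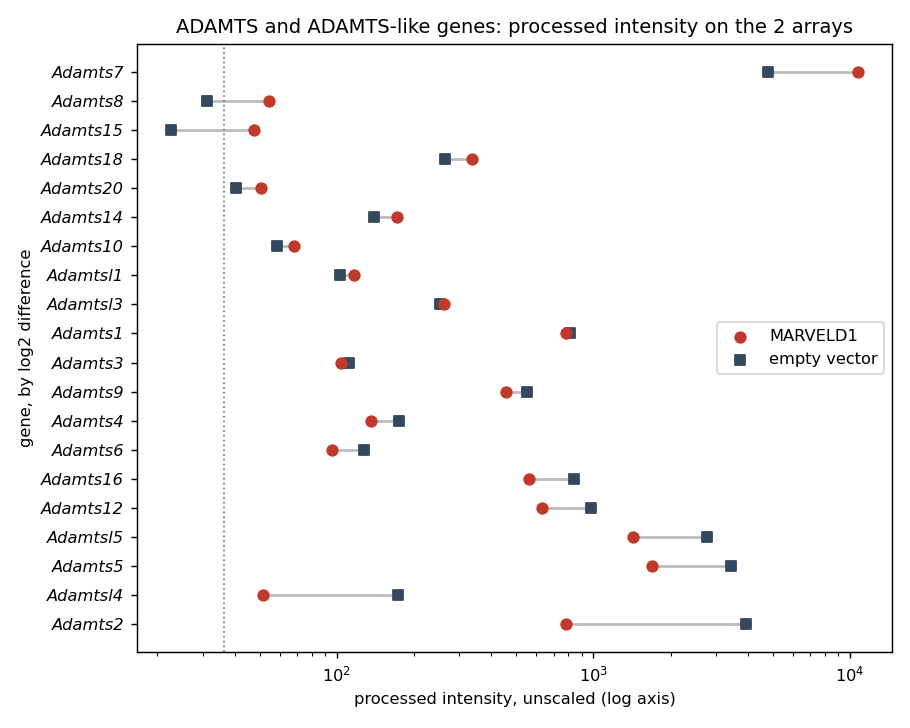
Processed intensity (horizontal log axis, unscaled) of the 16 detected ADAMTS and 4 detected ADAMTS-like genes on the MARVELD1 array (red circles) and the empty vector array (dark squares), ordered by log2 difference, with a dotted line at the mean of the arrays' lowest well-measured intensities. Adamts7 lies at the top, with 10770 on the MARVELD1 array against 4811.2 on the empty vector array, and Adamts2 at the bottom, with 781.2 on the MARVELD1 array against 3952.9 on the empty vector array.

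Of the 5 ADAMTS-like genes, Adamtsl4 and Adamtsl5 were lower on the MARVELD1 array, and Adamtsl1 and Adamtsl3 lay near the median of all genes. Adamtsl4, a fibrillin-binding protein of the zonule that holds the lens, read 51.4 on the MARVELD1 array and 173.6 on the empty vector array, a difference of -1.63 or 3.09-fold lower. It had 1 probe, dim on both arrays, and with normexp and quantile normalization its difference was -0.96. Adamtsl5, which also binds microfibrils, read 1433.1 on the MARVELD1 array and 2763.3 on the empty vector array, a difference of -0.82. Its most upstream probe read 1029.2 on the MARVELD1 array and 1336.2 on the empty vector array, a difference of -0.25. Its most downstream probe read 355.8 on the MARVELD1 array and 589.4 on the empty vector array, a difference of -0.60. All 3 Adamtsl5 probes lay below 0, within 0.57 of each other. Adamtsl3 read 260.8 on the MARVELD1 array and 252 on the empty vector array, a difference of 0.18. Adamtsl1 read 116.7 on the MARVELD1 array and 102.6 on the empty vector array, a difference of 0.31, with 0.06 and a bound of at least 1.10-fold lower by its other probes.

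Agreement between probes was examined over the 14 members with at least 2 probes measured on both arrays. In 6 of them (42.9%) the probes differed in sign, against 45.9% of 5486 genes with several such probes on the arrays. In 4 of them (28.6%) the probes lay over 2-fold apart, against 20.2% of all such genes. Those 4 were Adam15, Adam19, Adamts12 and Adamts2, with 1.61, 1.13, 1.75 and 2.40 log2 units between their probes. The median distance between the highest and lowest probe was 0.45 in the members and 0.49 in all such genes. The shares in the members thus lay near those of all such genes. Upstream probes tended to lie lower across these arrays. Among 4638 genes with probes at least 500 bases apart, the most upstream probe lay below the most downstream one in 3139 (67.7%), with a median of -0.28. Among 12 such members it did so in 7 (58.3%), with a median of -0.13. Adam15 and Adamts1 were among these, with -1.61 and -0.87, while Adamts12 and Adamts2 went the other way, with 1.75 and 0.93. The part of this order in the members' values was not tested.

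**Figure D4:**
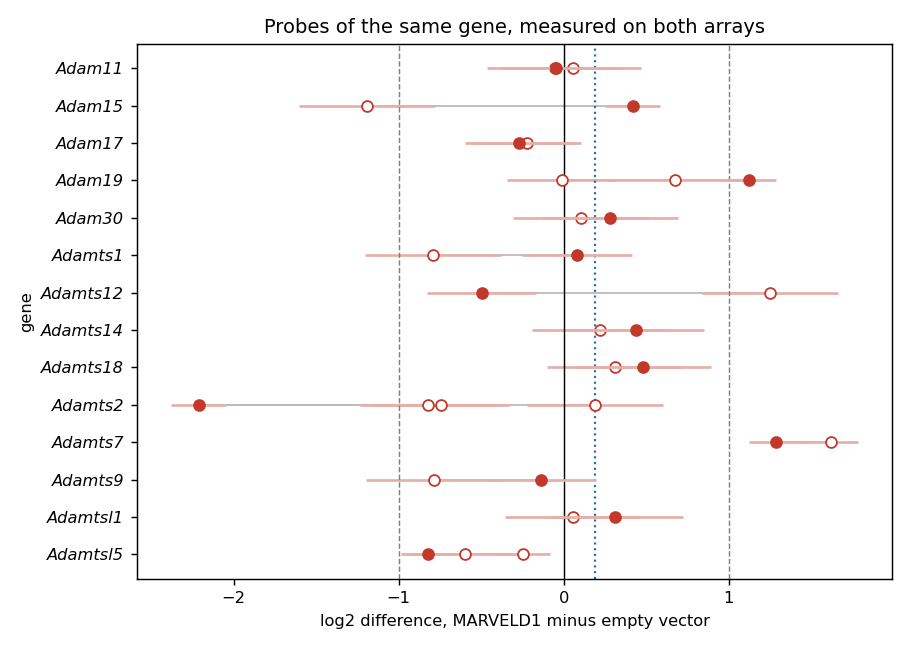
Log2 difference (MARVELD1 minus empty vector, horizontal axis) of each probe measured on both arrays, for the 14 members with at least 2 such probes, filled for the brightest probe, with bars of 1 SD of a difference between single spots, a dotted line at the median of all genes and dashed lines at 2-fold. Both Adamts7 probes lie beyond 2-fold, while the probes of Adam15, Adam19, Adamts12 and Adamts2 are over 2-fold apart.

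Genes taken to act on or with these proteases were described from 6 lists. The lists were chosen with earlier results of these data known and are therefore not independent evidence of any direction. Among all detected genes, 5.39% were past 2-fold higher and 3.53% lower, shares that depend on the scaling as given above. In lists this short, 1 gene more or fewer moves a share strongly. The list of protease inhibitors had a median of -0.34 over 9 detected genes, 0.52 below that of all genes. Some genes in it, such as the serpin Serpina3n, are not established inhibitors of ADAM or ADAMTS proteases. The counts thus describe the list and not that function. Of these 9, 0 were past 2-fold higher and 3 lower (33.3%). Timp3, the TIMP that inhibits several ADAM and ADAMTS proteases, read 79.7 on the MARVELD1 array and 2146.8 on the empty vector array, 24.7-fold lower. Reck, a membrane-anchored inhibitor of ADAM10, read 595 on the MARVELD1 array and 1416.4 on the empty vector array, 2.18-fold lower, and Serpina3n, a serpin, was 5.82-fold lower. Timp1 and Timp2 gave 0.95 and -0.61. Of the other detected inhibitors, Spock1 gave 0.91, Timp4 0.71, A2m 0.68 and Spock2 -0.34 at its brightest probe. The other Spock2 probes gave 0.14 and 1.85, so no single direction describes that gene. The 9 inhibitors lay on both sides of 0.

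Of 22 detected genes of ADAM maturation and trafficking, 0 were past 2-fold higher and 2 lower (9.09%), with a median of 0.14. Rhbdf1, an inactive rhomboid protein that carries ADAM17 to the surface, read 809.1 on the MARVELD1 array and 1902.4 on the empty vector array, 2.15-fold lower. Dlg4, a synaptic scaffold that binds the tail of ADAM22, was 2.63-fold lower at dim readings. Furin, the convertase that removes the ADAM propeptide, gave 0.43. Sh3pxd2a, an invadopodia scaffold that binds ADAM tails, gave 0.69, with 0.02 at its other probe.

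Of 40 detected substrates shed by ADAM10 or ADAM17, 2 were past 2-fold higher (5%) and 6 lower (15%), with a median of 0.14. Hbegf, an EGF receptor ligand, read 3752.1 on the MARVELD1 array and 1103.3 on the empty vector array, 3.71-fold higher, and the related ligand Epgn was 2.03-fold higher. Dlk1, a Notch pathway protein of fat cell precursors, read 121.8 on the MARVELD1 array and 5154.3 on the empty vector array, 38.7-fold lower, and its other probe gave -5.33. Cdh2, which encodes N-cadherin, was 6.52-fold lower at its brightest probe, and a second probe was measured on the MARVELD1 array alone, at least 1.55-fold higher. Ptprz1, a receptor phosphatase, was 5.38-fold lower at its brightest probe. A second Ptprz1 probe, measured on the MARVELD1 array alone, was at least 1.32-fold higher. Btc, a further EGF receptor ligand, was at least 3.77-fold lower, and its other probe was well above background on neither array. App gave -1.03 and -0.03 by its measured probes, and Kitl gave -1.01 and -0.10, so their 2-fold calls rest on 1 probe each. Aplp2 and Prnp, named for their bright signal, gave 0.38 and -0.29.

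Matrix genes handled by the secreted families were described in 2 lists. Of 10 detected proteoglycan substrates and related matrix genes, 2 were past 2-fold higher (20%) and 0 lower, with a median of 0.08. Vcan, encoding versican, gave -0.49, and Dcn, encoding decorin, gave 0.02. The 2 higher genes were Bcan and Cilp, at least 5.84-fold and at least 5.75-fold higher. Both passed the filter only through the MARVELD1 array, where they read higher. None of the 7 genes measured on both arrays passed 2-fold, so the 20% share gives no contrast with the next list. Of 23 detected procollagen and fibrillin partners, 0 were past 2-fold higher and 3 lower (13.0%). Their median was -0.33, which is 0.51 below that of all genes. Col3a1, a fibrillar procollagen, read 20080 on the MARVELD1 array and 64530 on the empty vector array, 2.94-fold lower, and its other measured probe gave -0.10. Fbn1, which encodes the fibrillin that ADAMTS-like proteins bind, gave -1.32 and -2.13 by its 2 probes. Fn1, encoding fibronectin, gave -1.12 at its brightest probe, -2.47 at a second and a bound of at least 1.06-fold lower at the remaining one. Col1a1 gave -0.33 at its brightest probe, and -1.60 and -0.33 at its others, so its place within 2-fold depends on the probe. Col1a2 gave -0.86. In the other direction, Mfap5 gave 0.93, Ltbp3 0.92, Pofut2 0.66, Bmp1 0.57 and Pcolce 0.41 at their brightest probes. The list thus did not lie on one side. The other probes of Ltbp3, Pofut2 and Bmp1 gave 0.10, -0.15 and 0.20. The 12 fibroblast markers had 0 higher and 3 lower past 2-fold (25%) and a median of -0.44. That list shares 4 genes with the partner list (Col1a1, Col1a2, Col3a1 and Fn1). Of its 3 lower genes, 2 are among the shared ones and the other is Pdgfrb.

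Of 9 ADAM-binding integrin genes, 2 were past 2-fold higher (22.2%) and 0 lower, with a median of 0.20. Itgb7, a leukocyte integrin subunit, read 18812 on the MARVELD1 array and 6369.7 on the empty vector array, 3.23-fold higher. Itga4, a partner of Itgb7, was well above background on the MARVELD1 array alone, at least 2.23-fold higher. This rests on 1 dim probe, with 89.1 on the MARVELD1 array and 43.6 on the empty vector array. The other Itga4 probes were well above background on neither array. Itgb5, a subunit of a vitronectin receptor, gave -0.91.

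**Figure D5:**
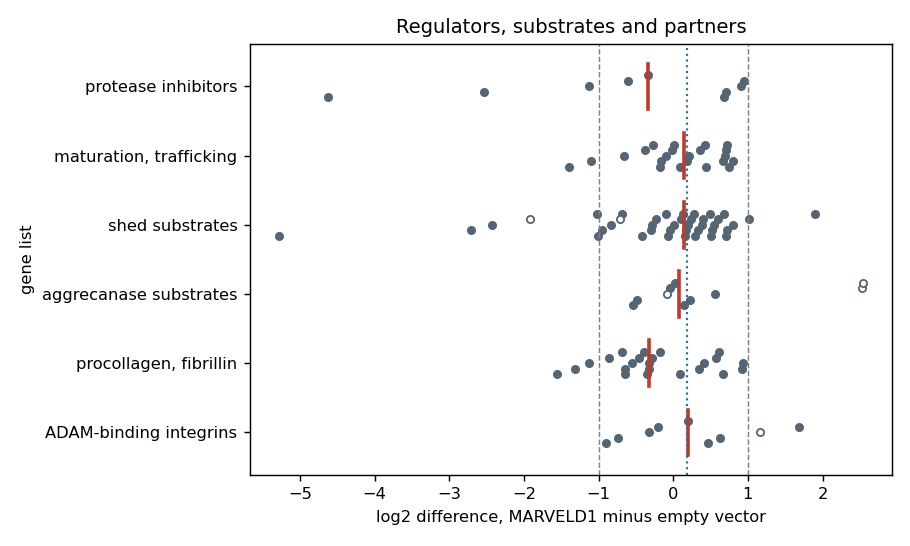
Log2 difference (MARVELD1 minus empty vector, horizontal axis) of each detected gene in 6 lists of regulators, substrates and partners, with open circles for bounds, a red bar for the list median, a dotted line at the median of all genes and dashed lines at 2-fold. The lowest points are Dlk1 among the shed substrates and Timp3 among the inhibitors, at -5.28 and -4.62, and the list medians lie between -0.34 and 0.20.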

How the data were processed

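The authors deposited 1 scanner file per array, whose values are fluorescence intensity per spot from Agilent Feature Extraction 9.5.3.1, per the file headers. That program subtracts background, per the file headers, and does not scale arrays to each other. A second file deposited by the authors holds normalized values for 26851 probes. Each column of this file equals the processed signal divided by 1 factor, 123.3 for the MARVELD1 array and 124.6 for the empty vector array, with 99.8% of probes on the MARVELD1 array and 99.7% on the empty vector array within 1% of it. The column medians are 2.94 for the MARVELD1 array and 3.11 for the empty vector array. Its scale is linear and it is not centred. What else the authors did is not given in the sources used here.

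Control spots and spots with a feature outlier flag (223 on the MARVELD1 array, 116 on the empty vector array) were left out, and 0 spots were saturated. Log2 processed intensities minus the array's 75th percentile (703.3 on the MARVELD1 array, 768.1 on the empty vector array) were averaged over the spots of a probe. The scaling adds 0.13 to each log2 difference. Members keep the names in the files, and for other probes the RefSeq gene table of GRCm38.p6 gave names and gene order only. Of 41084 usable probes, 32640 were named. A gene was represented by its brightest probe, and the members' probe coordinates and sequences are those of the array design in the files. No annotation of mm9 was used here, so exon and untranslated positions are not known. Groups come from the labels, and with 1 array per group no test was made. Python 3.11.15 with numpy 2.4.6 and pandas 2.3.3, and R 4.3.3 with limma 3.58.1 for normexp, quantile and loess normalization, were used. The script that averages spots and counts genes past 2-fold was tested on simulated data with known fold changes, which is a check of the script and not of the conditions.

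The rule for named genes takes every detected member. Full values are given for members past 2-fold, for those whose probes differ in sign, and for the 5 brightest ADAM, 5 brightest ADAMTS and 3 brightest ADAMTS-like genes. From each list it takes the 2 brightest genes and all past 2-fold. Other values of members, marker genes and second probes were chosen after they were seen. The members, the lists, the grouping by known roles and the alternatives were chosen with earlier results of these data known. The alternatives were 5 other normalizations or sources, 2 filters on dim probes, 2 ways of combining probes and thresholds of 1.5-fold and 3-fold.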

Additional observations from a re-analysis of the deposited data

How the results depend on the processing

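No paired analysis was possible because each group has 1 array, and leaving out a replicate is not possible either. The median log2 difference of all genes was 0.19 as reported, 0.08 under median scaling, 0.08 under quantile normalization and 0.04 under loess. It was 0.05 under normexp with quantile normalization and 0.07 in the authors' deposited table. With quantile normalization, after loess and in the authors' deposited table, 2 ADAMTS genes were past 2-fold lower in place of 1, since Adamts5 joined Adamts2. Normexp with an offset of 50 and quantile normalization left 0 ADAM genes higher, 0 ADAM genes lower and 0 ADAMTS-like genes lower. Of all genes, it left 307 higher and 421 lower. Of all genes, 479 were higher and 617 lower in the authors' deposited table. Without the filter on dim probes, 2 ADAMTS genes were higher and the ADAMTS-like median lay at -0.0080 relative to all genes, because the fifth gene, not well above background, enters and bounds are not used. The mean of all probes gave 0 ADAM and 2 ADAMTS genes higher. The lower counts stayed at 2 ADAM genes and 1 ADAMTS gene, but the genes changed. Adam12 (-1.01) stood in place of Adam33 (-0.50), and Adamts5 (-1.03) in place of Adamts2 (-0.90). The means of Adam12 and Adamts5 include probes that were not well above background. The median over measured probes gave 0 ADAM genes higher, 0 ADAMTS genes lower and 576 of all genes higher, and Adam19 (0.68) and Adamts2 (-0.78) no longer passed. A 1.5-fold limit gave 3 ADAM and 2 ADAMTS genes higher, 2 ADAMTS and 2 ADAMTS-like genes lower, and 3209 of all genes higher and 1482 lower. A 3-fold limit gave 0 ADAM genes higher, 0 ADAM genes lower and 0 ADAMTS genes higher, and 200 of all genes higher and 216 lower. Beyond what is said here, the cause of these shifts was not tested. Adamts7 passed 2-fold under 7 of 7 alternatives for single genes, Adam10 and Adamtsl4 under 6, Adam33 and Adamts2 under 5 and Adam19 under 4, with no change of sign in these 6 genes. Small differences changed sign under other scalings in Adam9, Adam29, Adamts1 and Adamts3, and under other ways of combining probes in Adam1a, Adam15, Adam29, Adamts1, Adamts8, Adamts9, Adamts10, Adamts12 and Adamts16. With genes measured on both arrays alone, the ADAMTS median was -0.13. Dim signal leaves only bounds for 3 ADAMTS genes and limits the calls of Adam10, Adam33 and Adamtsl4. These calls ended under normexp with quantile normalization, where the added offset narrows ratios of dim readings by construction.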
